A study of Homo sapiens with 6 samples.

Results

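Semaphorins are guidance ligands, and plexins and neuropilins are the receptors through which most of them act. The genes described here are the protein-coding rows of the deposited table whose symbols name a semaphorin of the human classes (SEMA3A to SEMA7A), a plexin or a neuropilin. That rule, which uses names only, found 31 genes among 60612 rows, of which 20 were ligands and 11 were receptors. Their transcripts were read in 6 poly(A) RNA libraries of SNU-368 cells, labelled as hepatocellular carcinoma. The treatments are labelled shCtrl (control hairpin, 3 libraries) and shTFAM (3 libraries). The latter is a knockdown of TFAM, a factor that packages mitochondrial DNA and takes part in its transcription. How many hairpins, clones or cultures stand behind each group is not stated, and p-values may therefore reflect technical spread alone. The series title sets the knockdown in a study of nuclear actin and liver cancer metastasis.

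Class 3 semaphorins are secreted and bind a neuropilin that forms a complex with a plexin. Classes 4 to 6 span the membrane, class 7 is held by a lipid anchor, and members of these classes bind plexins directly. Plexins carry a cytoplasmic domain that switches off small GTPases of the Ras family, and B plexins also recruit activators of RhoA, so that binding of a ligand reshapes actin and adhesion. In tumours the same proteins are known for effects on migration and on blood vessels, with neuropilins also serving as co-receptors of VEGF.

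TFAM stood at 12.3 to 14.8 FPKM (fragments scaled to gene length and sequencing depth) in shCtrl and 8.47 to 10.1 FPKM in shTFAM. It differed by -0.42 on the log2 scale (SE 0.107, edgeR adjusted p 0.0377), a call that ended when any 1 library was left out (edgeR adjusted p 0.0676 to 0.0948). Libraries held 43286024 to 61058282 counts, the most in shTFAM 3, and rows on mitochondrial DNA took 10.1 to 14.2% of counts in shCtrl and 7.91 to 10.7% in shTFAM. In a principal component analysis shCtrl 3 stood apart from the other controls. On the first component shTFAM 3 (44.1) lay beyond shTFAM 1 (23.2) and shTFAM 2 (28.7). With shCtrl 3 and shTFAM 3 both left out, 5 ligands and 6 receptors still rose. Of 9 hepatocyte markers, 6 had 0 counts in every library, among them ALB, AFP, APOA1, APOB and TTR. HNF4A stood at 0.0863 to 0.290 FPKM. The identity of the cells beyond their label was not tested. Of 7 endothelial markers none passed the filter on low values, with a summed level of 0.483 to 0.598 FPKM in shCtrl and 0.532 to 0.776 FPKM in shTFAM. Of 6 immune markers, PTPRC, CD3E and LYZ had 0 counts in all libraries, whereas CD68 rose (1.43 on the log2 scale, edgeR adjusted p 0.00892). The summed level of that list was 4.78 to 6.92 FPKM in shCtrl and 13.5 to 18.4 FPKM in shTFAM. Most of that sum came from CD68 alone, at means of 5.49 FPKM in shCtrl and 13.9 FPKM in shTFAM. Of 6 stromal markers, PDGFRB (1.69, edgeR adjusted p 0.000721) and DCN (2.95, edgeR adjusted p 0.00276) rose, COL1A2 had 0 counts throughout, and 3 did not pass. These were COL1A1 (0.091, edgeR adjusted p 0.779), ACTA2 (-0.68, edgeR adjusted p 0.226) and LUM (1.17, edgeR adjusted p 0.0924). The summed level of the list was 24.9 to 38.3 FPKM in shCtrl and 37.0 to 40.9 FPKM in shTFAM. The part of these markers in the results below was not tested, and in bulk RNA a change in the share of some cells and a change of RNA per cell cannot be told apart.

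Of the 31 genes, 13 rose in shTFAM cells, and they included both receptors and ligands. Of the 11 receptors, 9 passed the filter (a mean of at least 0.5 FPKM over the 6 libraries), and 7 of these rose, none fell and 2 did not pass edgeR's quasi-likelihood test at an adjusted p of 0.05. Of the 20 ligands, 9 passed the filter, and 6 rose, none fell and 3 did not pass. SEMA6C missed the filter narrowly, at a mean of 0.499 FPKM, and was called lower with edgeR's own count filter (edgeR adjusted p 0.0337). SEMA5A, also below the filter, was called higher there (edgeR adjusted p 0.0422). Over all 14708 rows tested, 17.9% were called, 11.3% as higher and 6.59% as lower. No tested member was lower at an unadjusted p under 0.05 in edgeR, and DESeq2 also called 0 lower. The split over all rows, 1661 higher and 969 lower, depended on scaling. It was 1353 and 1266 with library totals, where 5 ligands and 7 receptors rose, and 1198 and 1771 with counts outside mitochondrial DNA, where 5 ligands and 6 receptors rose. The median log2 fold change was 0.91 for the tested receptors and 0.81 for the tested ligands, against -0.015 over all rows. Each of the 18 tested members had a mean of at least 0.5 FPKM in both groups. By scaled counts the groups did not overlap in 8 receptors and 7 ligands, against 42.2% of all rows tested. Of these 15 members 14 were higher in shTFAM (22.1% of all rows) and 1, PLXNA1, was lower (20.1% of all rows).

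**Figure D1:**
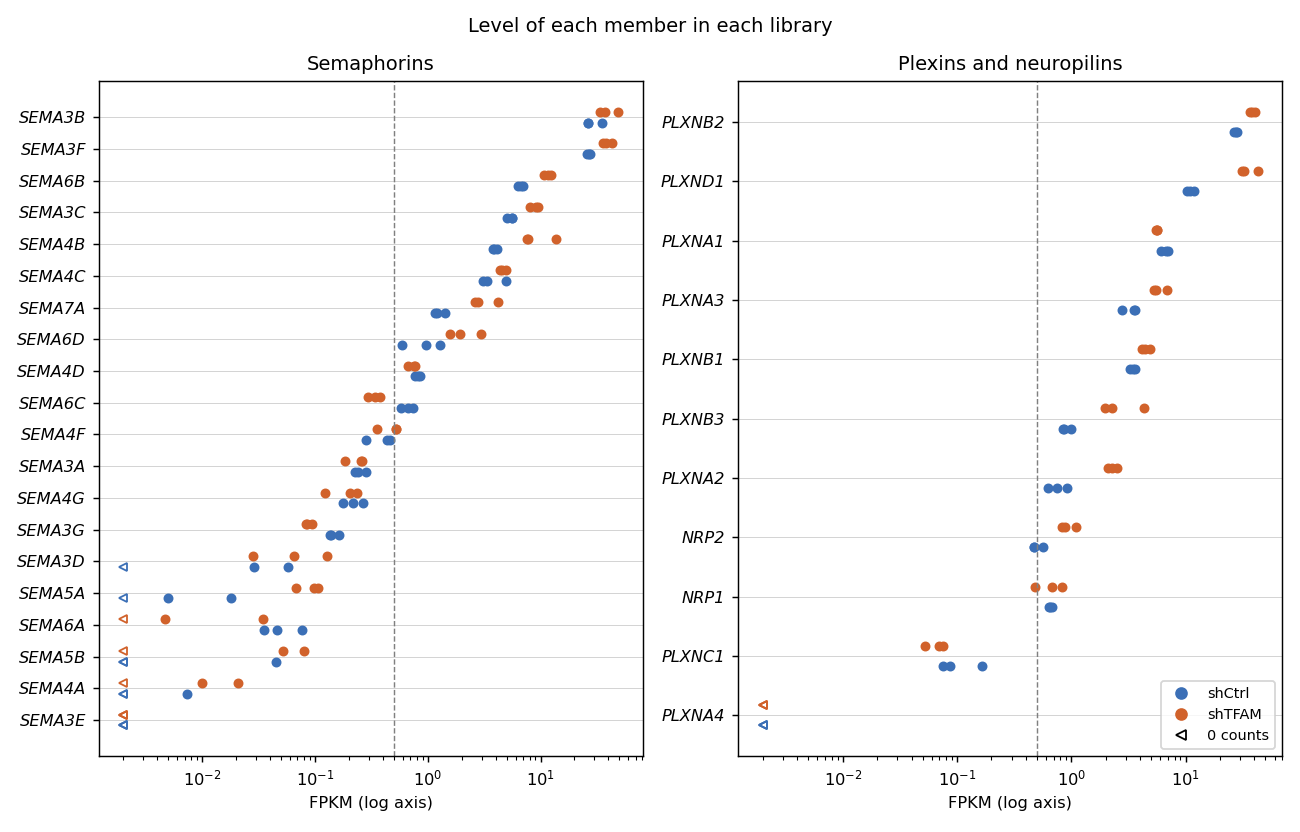
Level of each of the 31 members in each library, in FPKM on a log axis, with semaphorins on the left and receptors on the right; each point is 1 library, open triangles are libraries with 0 counts, and the dashed line is the filter of 0.5 FPKM. PLXND1 lies at 10.3 to 11.7 FPKM in shCtrl and 31.3 to 42.8 FPKM in shTFAM, and 13 members have a mean over all libraries below the filter.

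Among the receptors, PLXND1 (ENSG00000004399, chromosome 3, 129555214 to 129606676, minus strand, hg38) encodes plexin D1, the receptor of SEMA3E in blood vessel patterning. It stood at 10.8, 10.3 and 11.7 FPKM in shCtrl and at 32.1, 31.3 and 42.8 FPKM in shTFAM. All shTFAM libraries lay far above the shCtrl range, with shTFAM 3 highest. PLXND1 rose 3.43-fold, or 1.78 on the log2 scale (SE 0.157, edgeR adjusted p 0.00207). PLXNB3 (chromosome X, 153764196 to 153779346, plus strand) encodes plexin B3, a receptor of SEMA5A. It stood at 0.843, 0.994 and 0.856 FPKM in shCtrl and at 1.96, 2.28 and 4.32 FPKM in shTFAM. The groups were apart, with shTFAM 3 far above the other libraries. The log2 fold change of 1.75 (SE 0.326, edgeR adjusted p 0.0146) became 1.29 without shTFAM 3, and the call ended without shCtrl 1 (edgeR adjusted p 0.0506). PLXNA2 (chromosome 1, 208022242 to 208244384, minus strand) encodes plexin A2, which binds SEMA6A and also signals with neuropilins. It was low in shCtrl, at 0.745, 0.626 and 0.910 FPKM, and stood at 2.25, 2.08 and 2.50 FPKM in shTFAM, so that the groups were well apart. PLXNA2 rose by 1.66 on the log2 scale (SE 0.170, edgeR adjusted p 0.00276).

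These 3 receptors had the largest changes among the members called, and each has 1 start in RefSeq's promoter table (GRCh38.p14), so the 250 bases before it are shown. Capitals mark the letters ACGTG or GCGTG, read on either strand, which hold the core that hypoxia-inducible factors bind; the motif was chosen with earlier results of these data known.
PLXND1: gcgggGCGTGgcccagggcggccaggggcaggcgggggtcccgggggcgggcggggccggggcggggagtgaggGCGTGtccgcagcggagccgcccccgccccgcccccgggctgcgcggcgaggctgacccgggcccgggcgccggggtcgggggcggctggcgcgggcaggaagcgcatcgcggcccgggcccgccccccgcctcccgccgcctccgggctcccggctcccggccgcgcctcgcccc
PLXNB3: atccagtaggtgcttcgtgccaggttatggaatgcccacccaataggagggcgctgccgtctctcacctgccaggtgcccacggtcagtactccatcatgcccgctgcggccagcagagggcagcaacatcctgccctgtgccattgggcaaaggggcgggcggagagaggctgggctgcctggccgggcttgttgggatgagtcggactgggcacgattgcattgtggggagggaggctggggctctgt
PLXNA2: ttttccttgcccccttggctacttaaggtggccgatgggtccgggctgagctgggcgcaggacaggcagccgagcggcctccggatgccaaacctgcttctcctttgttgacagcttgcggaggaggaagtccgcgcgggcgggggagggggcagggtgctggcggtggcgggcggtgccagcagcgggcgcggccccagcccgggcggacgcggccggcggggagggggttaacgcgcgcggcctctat
The windows are chr3:129606677-129606926 on the minus strand, chrX:153763999-153764248 on the plus strand and chr1:208244385-208244634 on the minus strand. That of PLXND1 held GCGTG at 2 places, beginning 245 and 176 bases before the start, in a window of 88.8% G and C. The windows of PLXNB3 (64.4% G and C) and PLXNA2 (72.4%) held neither. Over the whole table, 43.2% of 35116 windows held a match, against 33.3% of the 48 windows of the 27 members found there and 19.0% of the 21 windows of called members. A match describes the letters only.

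The other receptors changed less. PLXNB2 (chromosome 22, 50274979 to 50307646, minus strand), the plexin that binds SEMA4C, was the most abundant receptor, at 27.6, 26.7 and 28.2 FPKM in shCtrl and 36.3, 37.8 and 40.7 FPKM in shTFAM. The groups did not overlap and the gene rose by a log2 fold change of 0.56 (SE 0.0946, edgeR adjusted p 0.0107). PLXNA3, a partner of neuropilins on chromosome X, stood at 3.63, 3.51 and 2.79 FPKM in shCtrl and 5.48, 5.26 and 6.91 FPKM in shTFAM, and rose (log2 fold change 0.91, edgeR adjusted p 0.0135). PLXNB1, the receptor of SEMA4D, stood at 3.60, 3.29 and 3.46 FPKM in shCtrl and 4.45, 4.13 and 4.92 FPKM in shTFAM. Its call (0.47, SE 0.113, edgeR adjusted p 0.0319) ended without any 1 library (edgeR adjusted p 0.0501 to 0.103), although the groups did not overlap. PLXNA1, a receptor of SEMA6D, was the only tested plexin with a negative value. It stood at 6.69, 6.14 and 7.02 FPKM in shCtrl and 5.61, 5.48 and 5.62 FPKM in shTFAM, so that the groups did not overlap, and it did not pass (-0.17, SE 0.0921, edgeR adjusted p 0.245). PLXNA4 had 0 counts in all 6 libraries, which allows a level of up to 0.0517 to 0.0673 CPM (depth-scaled counts), depending on the library and for counting error only. PLXNC1, the receptor of SEMA7A, stood at 0.0753 to 0.164 FPKM in shCtrl and 0.0527 to 0.0752 FPKM in shTFAM and was not tested with the filter.

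The neuropilins differed from each other in their values. NRP2, which binds SEMA3F and VEGFC, stood at 0.570, 0.469 and 0.471 FPKM in shCtrl and 1.10, 0.825 and 0.885 FPKM in shTFAM. NRP2 rose by 0.97 on the log2 scale (SE 0.167, edgeR adjusted p 0.0112), a call lost with limma on log2(FPKM + 1) (limma adjusted p 0.0584) and on log2(FPKM + 0.1) (limma adjusted p 0.0639). NRP1, which binds SEMA3A and VEGFA, stood at 0.643, 0.679 and 0.647 FPKM in shCtrl and 0.826, 0.679 and 0.484 FPKM in shTFAM. Its shTFAM libraries lay on both sides of the shCtrl range (0.089 on the log2 scale, SE 0.200, edgeR adjusted p 0.791). The difference between the changes of NRP1 and NRP2 was not tested.

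**Figure D2:**
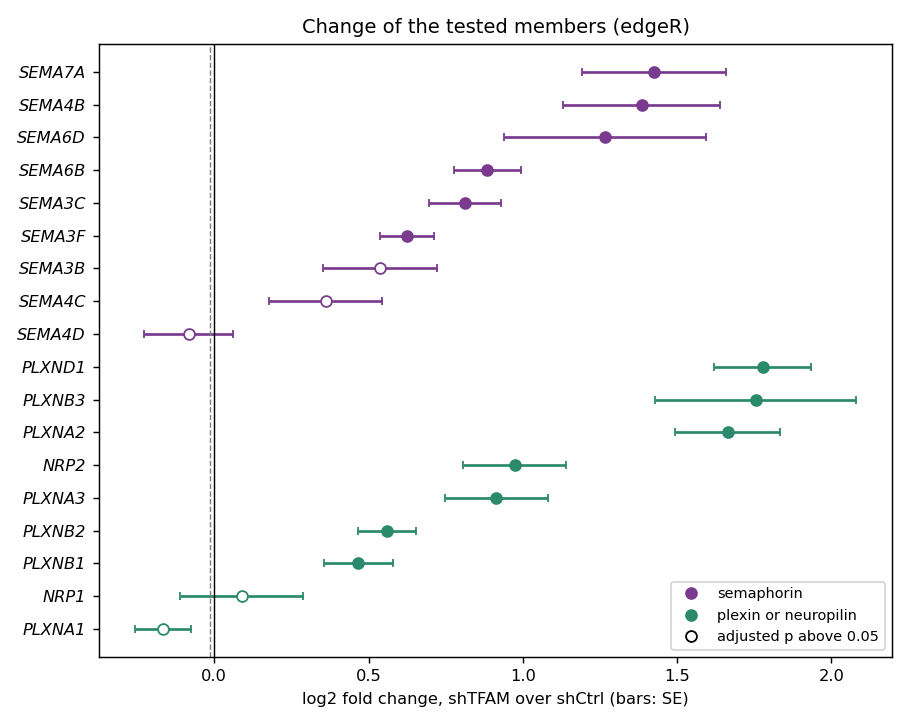
Log2 fold change of shTFAM over shCtrl for the 18 tested members from edgeR, with bars of 1 SE; semaphorins are above and receptors below, open points have an adjusted p above 0.05, and the dashed line is the median of all rows (-0.015). The 3 largest values are those of PLXND1, PLXNB3 and PLXNA2, and only SEMA4D and PLXNA1 lie below 0.

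Of the 7 secreted class 3 ligands, 3 were tested, 2 rose and 1 did not pass. SEMA3F and SEMA3B, both known as candidate tumour suppressors of the short arm of chromosome 3, lie near each other there (50155045 to 50189075 and 50267558 to 50277546, plus strand). SEMA3F stood at 27.6, 25.8 and 26.6 FPKM in shCtrl and 43.0, 38.2 and 35.6 FPKM in shTFAM. It rose by a log2 fold change of 0.62 (SE 0.0883, edgeR adjusted p 0.00617), with the highest level in shTFAM 1. SEMA3B, the most abundant ligand, stood at 34.7, 26.4 and 26.5 FPKM in shCtrl and 37.5, 33.4 and 48.7 FPKM in shTFAM. Its FPKM overlapped between the groups, since shCtrl 1 exceeded shTFAM 2, while its scaled counts did not. It did not pass in edgeR (0.54, SE 0.185, edgeR adjusted p 0.0872) but did in DESeq2 (DESeq2 adjusted p 0.0383). SEMA3C, a ligand of neuropilins and plexin D1, stood at 5.58, 5.05 and 5.55 FPKM in shCtrl and 8.01, 9.20 and 9.57 FPKM in shTFAM, and rose (0.81, SE 0.117, edgeR adjusted p 0.0064). The remaining 4 were below the filter. SEMA3A, the classical collapsing ligand of NRP1, stood at 0.226 to 0.281 FPKM in shCtrl and 0.186 to 0.261 FPKM in shTFAM. SEMA3G stood at 0.136 to 0.164 FPKM in shCtrl and 0.0835 to 0.0949 FPKM in shTFAM, and SEMA3D held at most 58 counts in a library. SEMA3E, the ligand of plexin D1, had 0 counts in all 6 libraries.

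Among the ligands held in the membrane, SEMA4B (chromosome 15, 90160604 to 90229676, plus strand) stood at 4.15, 3.87 and 3.80 FPKM in shCtrl and 7.55, 7.78 and 13.7 FPKM in shTFAM. It rose by a log2 fold change of 1.39 (SE 0.254, edgeR adjusted p 0.0139), and by 1.01 without shTFAM 3, which stood well above the other libraries. SEMA4C, the ligand of plexin B2, stood at 4.95, 3.38 and 3.07 FPKM in shCtrl and 4.96, 4.52 and 4.36 FPKM in shTFAM and did not pass (0.36, edgeR adjusted p 0.208). SEMA4D, the ligand of plexin B1, stood at 0.772 to 0.858 FPKM in shCtrl and 0.665 to 0.773 FPKM in shTFAM (-0.082, edgeR adjusted p 0.725). Thus 1 of 3 tested members of class 4 rose. Below the filter, SEMA4F stood at 0.283 to 0.462 FPKM in shCtrl and 0.355 to 0.526 FPKM in shTFAM, SEMA4G at 0.122 to 0.268 FPKM over all libraries, and SEMA4A held at most 11 counts.

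Both tested members of class 6 rose. SEMA6B stood at 6.99, 6.32 and 6.65 FPKM in shCtrl and 11.7, 10.6 and 12.4 FPKM in shTFAM (log2 fold change 0.88, SE 0.109, edgeR adjusted p 0.00398). SEMA6D, a ligand of plexin A1, stood at 1.29, 0.592 and 0.961 FPKM in shCtrl and 2.95, 1.58 and 1.94 FPKM in shTFAM. Both groups were widely spread, and the call (1.27, SE 0.328, edgeR adjusted p 0.0395) ended without any 1 library other than shCtrl 1 (edgeR adjusted p 0.0516 to 0.0998). SEMA7A (chromosome 15, 74409289 to 74433958, minus strand), the anchored ligand that also binds integrins with a beta1 chain, stood at 1.22, 1.16 and 1.42 FPKM in shCtrl and 2.64, 2.79 and 4.16 FPKM in shTFAM. It rose (1.43, SE 0.233, edgeR adjusted p 0.00959), and by 1.16 without shTFAM 3. In 10 of the 13 called members shTFAM 3 held the highest scaled count, and in the other 3 it was shTFAM 1.

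Some members below the filter differed between the groups in either direction. SEMA6C, at a mean of 0.499 FPKM just below it, stood at 0.734, 0.582 and 0.663 FPKM in shCtrl and 0.343, 0.375 and 0.295 FPKM in shTFAM. With no filter it differed by -0.87 on the log2 scale (SE 0.221, edgeR adjusted p 0.0559), and with edgeR's own count filter it was called (edgeR adjusted p 0.0337). SEMA5A, the ligand of plexin B3, had 12, 0 and 4 counts in shCtrl and 73, 66 and 62 counts in shTFAM. All shTFAM libraries lay above all shCtrl libraries (3.55, SE 0.928, edgeR adjusted p 0.0609 with no filter and 0.0422 with edgeR's count filter). SEMA6A, the ligand of plexin A2, had 26, 23 and 48 counts in shCtrl and 0, 21 and 4 counts in shTFAM (-1.91, edgeR adjusted p 0.382), and SEMA5B held at most 50 counts in a library. With no filter, 5 ligands and 6 receptors rose and none fell, with 6.9% of 30158 rows called. The members lost relative to the filtered test were PLXNB1 (edgeR adjusted p 0.0557) and SEMA6D (0.0525).

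Ligands were compared with receptors by the sum of FPKM in each library, given as a description because members were chosen by name and are not replicates. The ligand sum was 89.2, 75.2 and 77.1 FPKM in shCtrl and 120.5, 110.4 and 132.8 FPKM in shTFAM. The receptor sum was 55.3, 52.8 and 56.3 FPKM in shCtrl and 90.2, 89.9 and 109.2 FPKM in shTFAM. Both sums were higher in every shTFAM library, by a log2 ratio of means of 0.59 for ligands and 0.82 for receptors. SEMA3B and SEMA3F together gave 69.4% of the ligand sum in shCtrl and 65.0% in shTFAM. PLXNB2 gave 50.2% of the receptor sum in shCtrl and 39.7% in shTFAM, while the share of PLXND1 went from 20.0% to 36.7%. The ratio of ligand to receptor sums was 1.61, 1.42 and 1.37 in shCtrl and 1.34, 1.23 and 1.22 in shTFAM, lower in every shTFAM library. Without PLXND1 the ratio was 2.01, 1.77 and 1.73 in shCtrl and 2.08, 1.89 and 2.00 in shTFAM, so the direction of the ratio rested on that receptor. Without it, the receptor sum still stood at 43.8 ± 1.16 FPKM in shCtrl and 61.0 ± 4.68 FPKM in shTFAM (SD, n = 3 each).

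**Figure D3:**
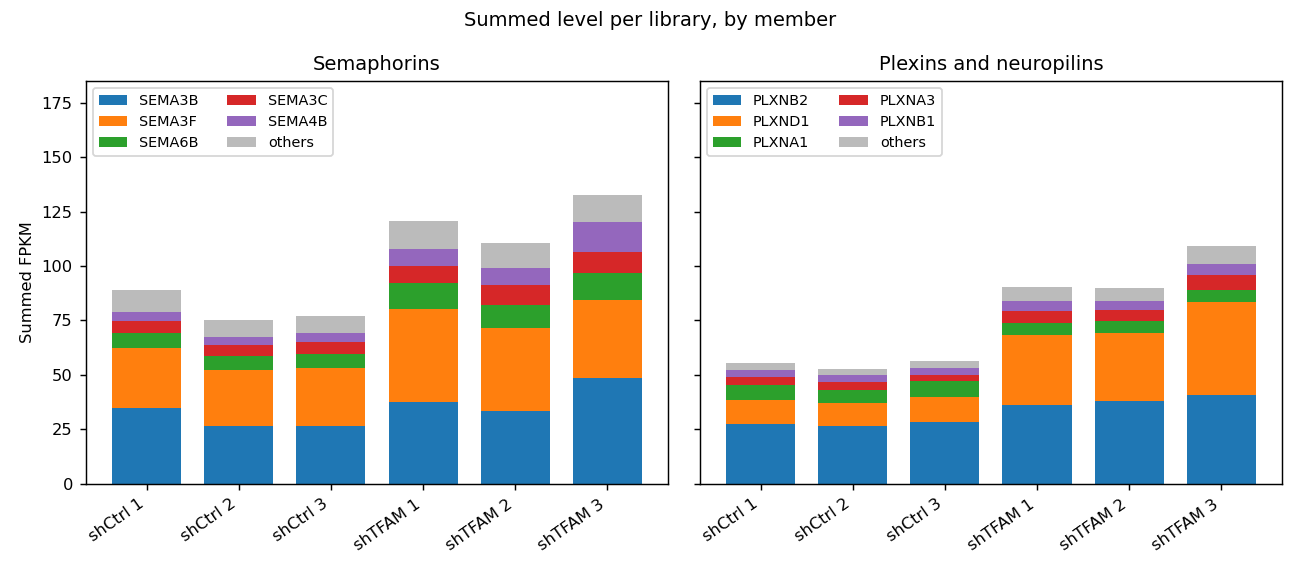
Summed FPKM of the 20 semaphorins (left) and the 11 receptors (right) in each library, with the axis starting at 0 and the 5 most abundant members of each kind in colour. The receptor sum is 52.8 to 56.3 in shCtrl and 89.9 to 109.2 in shTFAM, and the PLXND1 segment is visibly taller in the 3 shTFAM libraries.

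Some ligands and receptors known to bind each other were then set side by side. The pairs do not list every partner of a gene, so a paired gene at 0 counts or a low level does not leave the other without partners. PLXND1 rose while SEMA3E had 0 counts in every library, and the other ligand paired with it, SEMA3C, rose. SEMA3F was abundant at a mean of 26.7 FPKM in shCtrl, and NRP2, which rose, was at a mean of 0.503 FPKM. SEMA7A rose in cells where PLXNC1 had a mean of 0.109 FPKM in shCtrl and 0.0658 FPKM in shTFAM. SEMA6B rose where PLXNA4 had 0 counts. PLXNB3 rose where SEMA5A stood at means of 0.00766 and 0.0909 FPKM, and PLXNA2 where SEMA6A stood at 0.0529 and 0.0133 FPKM. For SEMA4C with PLXNB2 and SEMA4D with PLXNB1, the receptor rose and the ligand did not pass, and for SEMA6D with PLXNA1 the ligand rose and the receptor did not pass.

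**Figure D4:**
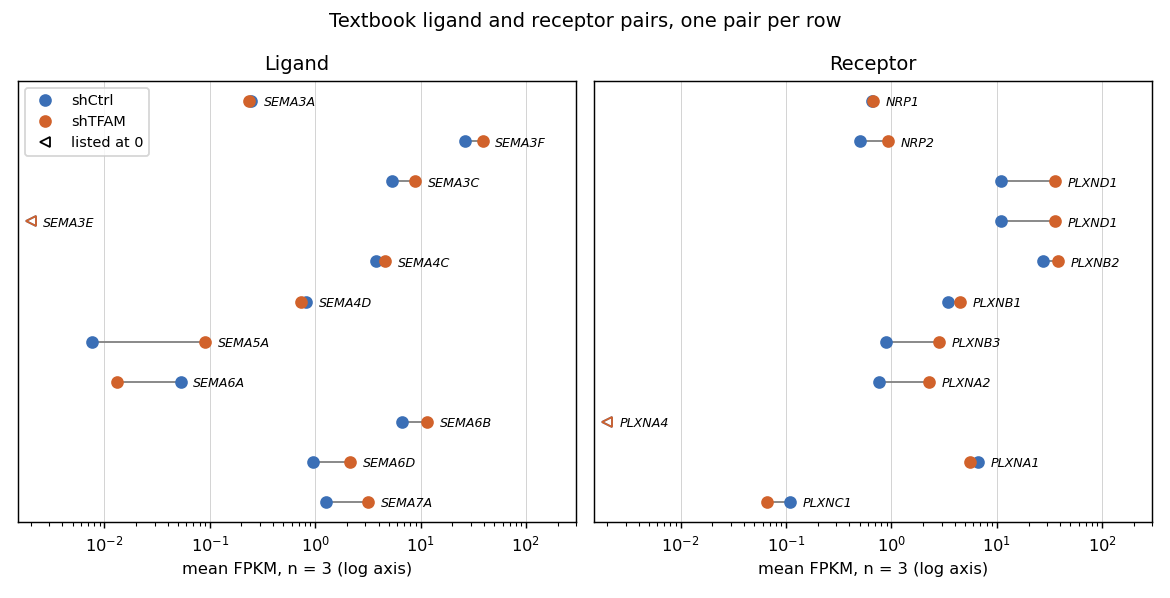
Mean FPKM (n = 3 per group, log axis) of 11 textbook pairs, 1 per row, with the ligand on the left and its receptor on the right; points are group means and triangles are genes listed at 0. SEMA3E (left) and PLXNA4 (right) are at 0 beside PLXND1 at 11.0 and 35.4 FPKM and SEMA6B at 6.65 and 11.6 FPKM.

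Other genes of the pathway were taken from lists. Of 14 co-receptors and binding partners, 8 were tested, of which 4 rose and none fell, with a median log2 fold change of 0.49. Beside this and the lists below stand 11.3% of all rows tested called as higher, 6.59% as lower and a median of -0.015. ITGA1 and ITGB1, the integrin chains that bind SEMA7A, stood at 2.00 to 2.37 and 23.4 to 31.9 FPKM in shCtrl and at 7.73 to 8.01 and 43.1 to 46.7 FPKM in shTFAM. The log2 fold changes were 1.91 for ITGA1 (edgeR adjusted p 0.000594) and 0.84 for ITGB1 (edgeR adjusted p 0.00882). L1CAM, an adhesion molecule that associates with NRP1, rose from 70.4 ± 1.85 to 92.7 ± 5.13 FPKM (SD, n = 3 each; 0.48, edgeR adjusted p 0.0149), and the pseudokinase PTK7 from 0.681 ± 0.0590 to 1.23 ± 0.232 FPKM (0.92, edgeR adjusted p 0.0164). The call of L1CAM ended without shCtrl 1 (edgeR adjusted p 0.0556) or shCtrl 2 (0.0623). That of PTK7 ended without shCtrl 1 (edgeR adjusted p 0.0581), without shCtrl 3 and shTFAM 3 together (edgeR adjusted p 0.0602) or with limma (limma adjusted p 0.0531 to 0.0538). The VEGF receptors KDR and FLT1, which pair with neuropilins in endothelium, had 0 counts in all libraries. Of 5 VEGF ligands, 3 were tested and VEGFC rose from 3.40 ± 0.528 to 6.04 ± 0.787 FPKM (0.91, edgeR adjusted p 0.0202), a call that ended without shCtrl 2 (edgeR adjusted p 0.0516), shTFAM 2 (0.0508) or shTFAM 3 (0.0555).

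Proteases that cleave semaphorins or their receptors included 2 of 4 tested genes that rose and none that fell, with a median of 0.51. FURIN, the convertase that processes class 3 semaphorins, stood at 20.9, 18.5 and 20.8 FPKM in shCtrl and 36.4, 31.4 and 37.9 FPKM in shTFAM. It rose by a log2 fold change of 0.90 (SE 0.112, edgeR adjusted p 0.0042). The sheddase ADAM10 rose from 4.70 ± 0.551 to 7.08 ± 0.645 FPKM (SD, n = 3 each; 0.67, edgeR adjusted p 0.0116). Of 32 cytoplasmic effectors, 26 were tested, 2 rose, none fell and 24 did not pass, with a median of 0.18. The number that rose was not above the share of 11.3% called as higher over all rows. FYN was the only tested gene of these lists that was lower at an unadjusted p under 0.05 (-0.44, edgeR adjusted p 0.138), and it was named for that value. Below the filter and not tested, the partner NRCAM had a mean of 0.278 FPKM in shCtrl and 0.0281 FPKM in shTFAM. The effector RND1 had 0.467 and 0.205 FPKM. By scaled counts the groups did not overlap in either, nor in DPYSL4, PGF and RND2, which were higher in shTFAM. The same held for 42.2% of all rows tested, but those rows exclude these genes. The share among rows below the filter was not computed. CRMP1, a mediator of SEMA3A signals, stood at 0.184, 0.442 and 0.333 FPKM in shCtrl and 1.17, 1.02 and 1.47 FPKM in shTFAM (2.01, SE 0.345, edgeR adjusted p 0.0113; 0.0659 without shCtrl 3 and shTFAM 3). LIMK1, the kinase that inactivates cofilin, rose from 4.55 ± 0.474 to 6.37 ± 0.574 FPKM (SD, n = 3 each; 0.57, edgeR adjusted p 0.0263), a call that ended without any 1 library other than shCtrl 3 and shTFAM 1 (edgeR adjusted p 0.0657 to 0.0872).

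Some members share their position with other rows, and reads can be shared there. The library protocol marked strand, per the labels, but whether the counting used it was not stated. SEMA3F-AS1 overlaps SEMA3F over 1041 bases on the other strand and held 1.85% as many counts. On chromosome X, SRPK3 overlaps PLXNB3 over 2935 bases on the same strand with 6.23% as many counts, and LAGE3 overlaps PLXNA3 over 11 bases with 25.3%. A pseudogene row, AC044787, lies in SEMA6D on the other strand with 16.5% as many counts. Of the members below the filter, SEMA4G lies opposite MRPL43, which held 5956 counts against 383, and PLXNC1 opposite part of CEP83, with 4656 against 308. SEMA6A lies opposite SEMA6A-AS1 over 48575 bases, with 47 counts for that row against 122. These rows leave the levels of SEMA4G, PLXNC1 and SEMA6A uncertain.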

How the data were processed

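RNA sequencing of 6 SNU-368 libraries was analysed, 3 labelled shCtrl and 3 labelled shTFAM. Without giving roles, the submitters' processing notes list HISAT2 2.0.4, StringTie 1.3.4d, cutadapt 1.9 and Bowtie 0.12.2, and the builds hg38 and mm8. The counting tool is not stated. Whole-number counts and FPKM per gene were deposited by the authors, per the file headers, with rows of 0 counts listed at up to 1e-04 FPKM. All 31 members overlapped GENCODE's GRCh38 gene of the same identifier, chromosome and strand.

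On the deposited counts, 14708 of 60612 rows (mean of 0.5 FPKM or more) were tested with edgeR 4.0.16 in R 4.3.3: TMM scaling, quasi-likelihood F test, two-sided, Benjamini-Hochberg over all rows tested. The SE was derived from the F statistic and the log2 fold change. CPM are counts scaled by TMM library sizes; FPKM are as deposited. Alternatives used DESeq2 1.42.0 and limma 3.58.1. The test was checked on simulated counts with 200 changed genes in each of 3 runs. It called 5.97% of changes of 0.5 log2 units, 53.7% of those of 1 and 90.9% of those of 2. The data held far more called rows (2630) than the 200 genes changed there, so the threshold on unadjusted p was stricter in the simulation. These shares are therefore no measure of how many real changes the test found in the data. A gene that did not pass may still have changed. No replicate pair agreed within sampling noise (lowest chi-square per degree of freedom 41.9). Members and lists were chosen with earlier results of these data known. All members are named. From each other list, up to 4 called genes with the smallest p are named. Where none was called, the 2 most abundant were to be named, but only HNF4A is, and the endothelial list is given as a sum. Markers and partners at 0 counts, FYN, NRCAM, RND1, RND2, DPYSL4, PGF, COL1A1, ACTA2 and LUM were named after their values were seen. The result of 1 gene of the marker lists is not reported here. Promoter windows came from RefSeq. Figures used matplotlib 3.10.9.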

Additional observations from a re-analysis of the deposited data

How the results depend on the processing

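All 13 called members had the same sign in every alternative fit run for them, and 9 of them, 5 ligands and 4 receptors, also had an adjusted p of at most 0.05 in each fit. At the stricter adjusted p of 0.01, 4 ligands and 2 receptors rose. The called members that lost their call at an adjusted p of 0.05 in some alternative fit were NRP2, PLXNB1, PLXNB3 and SEMA6D. Of all rows, 2630 were called, 698 at an adjusted p of 0.01 and 1148 to 2065 with 1 library left out. Risen receptors, 7 in all, numbered 2 at that stricter threshold and 2 among rows of at least 5 FPKM, where 3 receptors were tested, and 5 to 6 with 1 library left out; ligands numbered 5 to 6. With shCtrl 3, which stood apart from the other controls, left out together with shTFAM 3, 5 ligands and 6 receptors rose. With edgeR's own count filter 1 ligand, SEMA6C, fell. Over all rows the median was -0.015, -0.15 after scaling to counts outside mitochondrial DNA, and -0.090 with library totals. NRP1 had, in the first of these alternatives, -0.036, with limma on log2(FPKM + 0.1) -0.013, and -0.091 to 0.25 with 1 library left out. SEMA3A had 0.0030 with edgeR's count filter and -0.0077 with none. The log2 ratio of ligand sums was 0.79 with FPKM rescaled to one total in every library. That of receptor sums was then 1.01, and 1.09 without PLXNB2 and 0.48 without PLXND1. The log2 change of the ligand to receptor ratio, -0.22, was 0.11 without PLXND1 and -0.49 without PLXNB2. Leaving out PLXND1, or PLXNB2 or SEMA3B from the ratio, was chosen after seeing the data. No paired analysis was possible because the titles number controls and knockdowns with different numbers.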
